A study of Homo sapiens with 36 samples.

Results

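The 10 genes described here are those by which the epithelial or mesenchymal state of a carcinoma cell is commonly read: CDH1, EPCAM and ESRP1 on the epithelial side, CDH2, VIM and FN1 on the mesenchymal side, the transcription factors ZEB1, ZEB2 and SNAI2, and the surface receptor CD44. They were chosen by name, 10 of the 27852 genes with a symbol in the table, and not by any measured value. All 10 were followed in poly-A RNA of 4 human prostate cancer (PCa) cell lines. DU145 and 22Rv1 are labelled osteolytic PCa (LPCa), and C4-2 and C4-2B are labelled osteoblastic PCa (BPCa). Each line was grown for 5 days in 4 ways: mono-culture without RANKL (n = 3), co-culture with MG63 cells without RANKL (n = 2), mono-culture with 50 ng/mL RANKL (n = 2), and co-culture with RAW264.7 cells with RANKL (n = 2). This gave 36 cultures in 16 groups. MG63, a human osteosarcoma line, stands in for osteoblasts, RAW264.7 is a mouse monocytic line that can form osteoclasts, and RANKL is the cytokine that drives osteoclast formation. A filter kept the partner cells apart from the PCa cells, whose RNA was sequenced. All 36 shared αMEM with fetal bovine serum. Each line is 1 established line, so a difference between LPCa and BPCa is a difference between 2 lines and 2 lines.

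Epithelial cells hold together through E-cadherin and keep an RNA splicing program run by ESRP proteins, while mesenchymal cells use N-cadherin, vimentin filaments and a fibronectin matrix. In epithelial-mesenchymal transition, repressors of the ZEB, SNAIL and TWIST families switch off CDH1 and other epithelial genes, and carcinoma cells often stop at states in between. In prostate cancer these states are studied for their part in invasion and in the move to bone.

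Levels are given as TPM (transcripts per 1000000), which are per length and can be compared between genes. Library totals were 23932472 to 36719047 counts in the 12 mono-cultures without RANKL and 9593426 to 15418211 in the 24 other cultures. A zero or near-zero level therefore has a different floor in each set: 3 reads of CDH2 correspond to 0.0319 to 0.0501 TPM in the deep libraries and 0.0733 to 0.121 TPM in the others, for counting error only. Replicate 2 of DU145 with MG63 stood apart from replicate 1, with a chi-square per degree of freedom of 106 between them against 2.96 to 6.27 for every other pair within a group, and the calls with MG63, which share 1 estimate of the spread with it, are given without it too. Of 10 prostate epithelial markers each was above 3 counts in at least 1 culture of every group. In bulk RNA, fewer cells of a type and less RNA per cell cannot be told apart. Nothing in the labels says that replicates were separate cultures started on separate days, so p-values measure only the spread between these samples.

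In mono-culture the epithelial genes CDH1, EPCAM and ESRP1 were lower in DU145 than in each of the other 3 lines, and VIM, ZEB1, ZEB2 and CD44 were higher. FN1 and SNAI2, in contrast, were lowest in DU145, FN1 being highest in C4-2B and SNAI2 in 22Rv1. With edgeR at an adjusted p under 0.05, 8 of the 10 genes passed the minimum of 100 counts, while CDH2 and ZEB2 did not (highest counts 78.6 and 51.1). All 8 were called between DU145 and 22Rv1, where 79.6% of all genes tested were called, between DU145 and C4-2 (78.3% of all genes) and between DU145 and C4-2B (79.0%). Between 22Rv1 and C4-2, 6 of 8 were called against 72.0% of all genes, and between 22Rv1 and C4-2B 7 of 8 against 72.6%. Between C4-2 and C4-2B, 4 of 8 were called against 13.6% of all genes. ZEB1 reached the minimum through DU145 alone (at most 91.4 counts in other lines), and CD44 through DU145 and 22Rv1 (at most 14.3 in the BPCa lines). ESRP1 and SNAI2 reached it only in lines other than DU145 (at most 45.0 and 84.5 counts in DU145). The minimum thus favours calls of these genes between lines, and the counts of calls are no result about the 8 genes. The lines also differ so widely that a call alone says little here, so the sizes below carry the description.

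CDH1 encodes E-cadherin, the adhesion protein of epithelial junctions. In DU145 mono-cultures it was at 10.0, 13.6 and 12.3 TPM. The same gene was at 115, 119 and 107 TPM in 22Rv1, at 245, 242 and 246 TPM in C4-2, and at 226, 221 and 241 TPM in C4-2B. No DU145 culture came near another line, and 22Rv1 sat below both BPCa lines without overlap. The log2 difference of DU145 from 22Rv1 was −3.23 ± 0.0842 (SE, edgeR adjusted p = 3.88e-15), and that from C4-2 was −4.38 ± 0.0876 (adjusted p = 1.42e-16). 22Rv1 was lower than C4-2 by 2.22-fold (adjusted p = 8.58e-10), whereas C4-2 and C4-2B were not separated (log2 difference 0.04 ± 0.0741, adjusted p = 0.809).

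EPCAM, a surface adhesion protein used to identify carcinoma cells, showed a single step. It was at 14.5, 16.4 and 21.6 TPM in DU145 mono-cultures and between 89.9 and 103 TPM in the 9 mono-cultures of the other 3 lines. The log2 difference of DU145 from 22Rv1 was −2.41 ± 0.137 (adjusted p = 7.30e-11). The 3 C4-2 values, 102, 103 and 102 TPM, lay just above all values of 22Rv1 and C4-2B, which overlapped with each other. None of the 3 pairs among these lines was called (adjusted p = 0.226 for 22Rv1 and C4-2, 0.436 for 22Rv1 and C4-2B, and 0.839 for C4-2 and C4-2B). Without replicate 2 of DU145 with MG63, which shares the fit, 22Rv1 and C4-2 were called (log2 −0.18, adjusted p = 0.0447).

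ESRP1 encodes an RNA-binding protein that directs epithelial patterns of splicing, and it had the largest epithelial difference of the 3. Its levels in DU145 mono-cultures were 0.587, 0.768 and 0.441 TPM. They were 107, 106 and 101 TPM in 22Rv1, 84.5, 81.3 and 88.0 TPM in C4-2, and 64.7, 62.6 and 68.3 TPM in C4-2B. The 4 lines did not overlap, in the order 22Rv1, C4-2, C4-2B and DU145. DU145 was 171-fold below 22Rv1 (log2 −7.42 ± 0.113, adjusted p = 8.93e-18) and 114-fold below C4-2B (log2 −6.83 ± 0.113, adjusted p = 1.36e-17).

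CDH2 encodes N-cadherin, the cadherin that mesenchymal cells use in place of E-cadherin. It was detected above the floor in a single line at baseline: 22Rv1 mono-cultures had 0.827, 1.22 and 1.2 TPM, between 50.9 and 91.9 reads each. The DU145 mono-cultures held at most 1 read, and all 6 mono-cultures of C4-2 and C4-2B were at 0. DU145, the line with the lowest CDH1, thus had no detectable CDH2 at this depth.

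VIM, the intermediate filament protein vimentin, was the highest of the 10 genes in DU145. The DU145 mono-cultures had 1254, 1288 and 1238 TPM. In 22Rv1 the values were 17.9, 21.5 and 20.1 TPM, in C4-2 18.4, 20.4 and 19.2 TPM, and in C4-2B 3.45, 4.33 and 4.28 TPM. DU145 exceeded 22Rv1 by 64.2-fold (log2 6.01 ± 0.135, adjusted p = 6.96e-16) and C4-2B by 296.5-fold (log2 8.21 ± 0.153, adjusted p = 5.93e-17). 22Rv1 and C4-2 overlapped and were not separated (log2 −0.01 ± 0.117, adjusted p = 0.935). C4-2, although close to C4-2B in most of these genes, had 4.65-fold more VIM without overlap (log2 2.22 ± 0.132, adjusted p = 1.25e-08).

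FN1 encodes fibronectin, a matrix glycoprotein that is usually grouped with mesenchymal genes, yet it was lowest in DU145 and highest in C4-2B, where VIM was highest and lowest. It was at 3.94, 4.98 and 4.53 TPM in DU145 and at 23.3, 18.9 and 19.7 TPM in 22Rv1. In C4-2 it was at 575, 507 and 545 TPM, and in C4-2B at 874, 855 and 921 TPM. All 4 lines were separate, DU145 lying 208-fold below C4-2B (log2 −7.70 ± 0.106, adjusted p = 2.36e-18) and C4-2 lying 1.68-fold below C4-2B (adjusted p = 5.97e-06). FN1 is made in forms with or without 2 extra domain exons, EDA and EDB, at chr2:215380811-215381080 and chr2:215392931-215393203 (GRCh38, minus strand). Among FN1 transcripts that span the EDA exon, the share of counts that contain it was 50.3% ± 0.715 in C4-2, 46.6% ± 1.49 in C4-2B, 56.6% ± 7.47 in DU145 and 28.6% ± 5.81 in 22Rv1 mono-cultures (SD, n = 3). The EDB share was 5.90% ± 0.530 in C4-2 and 3.62% ± 0.148 in C4-2B, with wider spread at the low FN1 levels of DU145 (19.7% ± 12.7) and 22Rv1 (15.8% ± 3.46). The most abundant FN1 transcript in C4-2 was FN1-212, with 44.9% of the gene's counts.

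ZEB1, a zinc finger repressor of CDH1 and of other epithelial genes, was at 17.1, 18.5 and 16.8 TPM in DU145 mono-cultures and between 1.58 and 3.10 TPM in those of the other 3 lines. DU145 was 6.0-fold above 22Rv1 (log2 2.59 ± 0.161, adjusted p = 2.44e-10) and 9.59-fold above C4-2B (log2 3.26 ± 0.168, adjusted p = 1.97e-11). The split by transcript type, looked at after the values were seen, was wider than the gene totals. Protein-coding ZEB1 transcripts were at 6.84 to 12.8 TPM in the 9 DU145 cultures and at no more than 0.133 TPM, or 1.86 counts, in any of the 27 cultures of the other lines. In 22Rv1 mono-cultures 92.1% of ZEB1 counts fell on ZEB1-218, a transcript annotated as a retained intron.

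ZEB2, the paralog of ZEB1, was low everywhere. It was at 1.5, 1.13 and 0.875 TPM in DU145 mono-cultures, and no culture of any other line exceeded 0.177 TPM or 5.86 counts. A fit with no minimum of counts gave a log2 difference of 3.68 ± 0.631 between DU145 and 22Rv1 (adjusted p = 9.77e-05). SNAI2 encodes SLUG, another repressor of CDH1, and its order did not follow that of ZEB1. The values were 2.47, 2.82 and 2.65 TPM in DU145, 10.9, 11.4 and 11.7 TPM in 22Rv1, 3.47, 3.65 and 4.59 TPM in C4-2, and 6.81, 7.24 and 7.21 TPM in C4-2B. The 4 lines did not overlap, and DU145 was 4.24-fold below 22Rv1 (log2 −2.08 ± 0.135, adjusted p = 3.98e-10). The factor with the highest level was thus ZEB1 in DU145 and SNAI2 in the other 3 lines.

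CD44, a receptor for hyaluronan, was at 166, 173 and 177 TPM in DU145 mono-cultures and at 31.4, 36.8 and 33.2 TPM in those of 22Rv1. In the 6 mono-cultures of C4-2 and C4-2B it lay between 0.146 and 0.317 TPM. DU145 was 5.14-fold above 22Rv1 (log2 2.36 ± 0.185, adjusted p = 4.64e-09), and 22Rv1 was 129-fold above C4-2 (log2 7.02 ± 0.319, adjusted p = 8.61e-12). C4-2 and C4-2B overlapped and were not separated (log2 −0.11 ± 0.655, adjusted p = 0.957).

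Set by labelled phenotype, 4 of the 8 tested genes did not overlap between the 6 LPCa and the 6 BPCa mono-cultures. Of all genes tested, 40.8% did not overlap. CD44 and ZEB1 reached the minimum of counts through LPCa lines only (at most 14.3 and 63.2 counts in the BPCa lines). CDH2 and ZEB2, which missed the minimum, overlapped. The 4 of 8 is thus partly set by the minimum, and no conclusion is drawn from it beside the share of all genes. CDH1 and FN1 were lower in LPCa, at 10.0 to 119 TPM against 221 to 246 TPM and at 3.94 to 23.3 TPM against 507 to 921 TPM. ZEB1 and CD44 were higher in LPCa, at 2.83 to 18.5 TPM against 1.58 to 2.28 TPM and at 31.4 to 177 TPM against 0.146 to 0.317 TPM. The ZEB1 separation rests on the gene totals: protein-coding ZEB1 was listed at 0 in all mono-cultures of 22Rv1, C4-2 and C4-2B, so it did not separate 22Rv1 from the BPCa lines. EPCAM, ESRP1, VIM and SNAI2 overlapped.

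The CD44 gene (chr11:35138870-35232402, plus strand) carries a block of variable exons, v2 to v10, which ESRP proteins are known to help include. The standard form joins the fifth exon directly to the shared exon after the block, and the form with v8 to v10 is the one often found in epithelial cells. The junctions that tell these forms apart are printed 5′ to 3′, 30 bases from each side, from GENCODE 29 transcripts on GRCh38, with bases of variable exons in capitals and shared exons in lower case. The standard junction joins chr11:35190036-35190065 to chr11:35214852-35214881, the second joins the same left side to chr11:35208105-35208134 in v8, and the third joins chr11:35211420-35211449 in v10 to the shared exon.
CD44 exon 5 to shared exon (CD44-201): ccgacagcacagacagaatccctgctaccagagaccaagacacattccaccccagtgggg
CD44 exon 5 to v8 (CD44-209): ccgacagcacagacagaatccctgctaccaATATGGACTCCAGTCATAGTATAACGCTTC
CD44 v10 to shared exon (CD44-209): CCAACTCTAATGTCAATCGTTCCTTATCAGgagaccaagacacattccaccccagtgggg

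The 2 CD44-positive lines used these forms differently. Of the CD44 level (per length) in transcripts that either hold a variable exon or skip the whole block, the share that holds 1 or more was 13.7%, 13.6% and 15.9% in the DU145 mono-cultures and 71.1%, 68.2% and 69.9% in those of 22Rv1. The means were 14.4% ± 1.3 and 69.7% ± 1.48 (SD, n = 3), a difference of 55.3 percentage points without overlap (p = 0.1 by an exact two-sided permutation of the labels, which cannot go lower with 3 against 3). CD44-209, which holds v8 to v10, made up 32.4% of CD44 counts in 22Rv1 mono-cultures, whereas the standard CD44-201 made up 64.6% in DU145. The shares depend on the scale: as shares of reads rather than per length they were 5.07% in DU145 and 44.6% in 22Rv1, again without overlap. C4-2 and C4-2B had too few CD44 counts for a share.

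With RANKL the variable share in DU145 was 20.8% and 24.6%, above all 3 mono-cultures, a difference of 8.27 percentage points (p = 0.1 by the exact permutation test, which cannot go lower with 2 against 3). Standard transcripts fell from 139 ± 5.17 to 85.6 ± 2.14 TPM while variable ones stood at 23.5 ± 3.08 and 25.2 ± 4.50 TPM (SD, n = 3 and n = 2). In 22Rv1 both classes were higher with RANKL, at 15.1 against 9.66 TPM for standard and 33.8 against 22.2 TPM for variable transcripts, and the share overlapped with mono-culture (69.1% against 69.7%). The DU145 cultures with MG63 had shares of 16.7% and 7.66%, the lower from the replicate that stood apart.

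**Figure D1:**
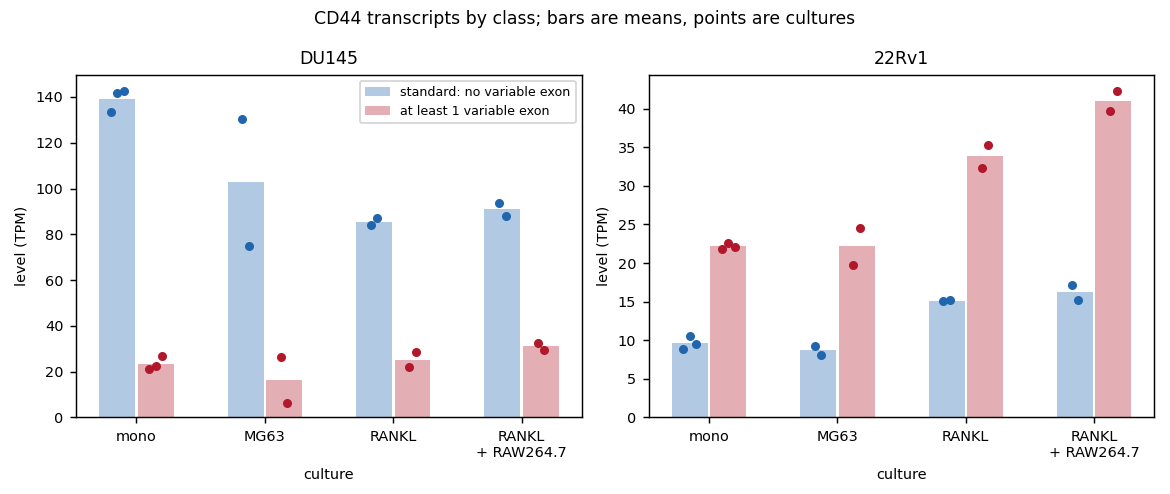
CD44 level (TPM) in standard transcripts and in transcripts with at least 1 variable exon, by culture, in DU145 and 22Rv1; bars are means and points are cultures, with a different vertical scale in each panel. Standard transcripts exceed variable ones in every DU145 culture, and variable transcripts exceed standard ones in every 22Rv1 culture.

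Other genes of the 2 states were read in 2 panels of 30 genes each, listed by function. In mono-culture, 4 of 30 tested genes of the epithelial panel were higher and 18 lower in DU145 than in each of the other 3 lines, with a median log2 difference of −1.70 from their mean. Of the mesenchymal panel 21 of 30 genes reached the minimum of 100 counts in at least 1 culture. A gene near 0 in the other lines could reach it through DU145 alone, so no count or median over these 21 is given for the differences between lines. Over all genes tested 27.1% were higher and 26.0% lower, with a median of −0.01. OVOL1, a repressor of mesenchymal genes, was at 0 to 0.0783 TPM in DU145 against 5.17 to 9.98 TPM in the other lines. AP1M2, an adaptor of epithelial protein sorting, was at 2.29 to 2.98 TPM against 162 to 170.1 TPM, and PRSS8, a membrane protease, was at 0.387 to 0.456 TPM against 13.8 to 29.2 TPM. On the mesenchymal side the receptor kinase AXL was at 432 to 442 TPM in DU145 and at no more than 0.385 TPM elsewhere, the matrix protein TGFBI at 498 to 523 TPM against at most 0.977 TPM, and ANXA1 at 507 to 541 TPM against at most 1.82 TPM. The transcription factor TWIST2 was at 6.05 to 8.37 TPM in DU145 and at 0 in the mono-cultures of 22Rv1 and C4-2. Other transcription factors of the mesenchymal panel went the other way. TCF4 was called lower in DU145 than in each of the other 3 lines (log2 difference from their mean −3.77). TWIST1 was at −6.64 but was not called against all 3. TCF4 and TWIST1 were named after their values were seen.

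**Figure D2:**
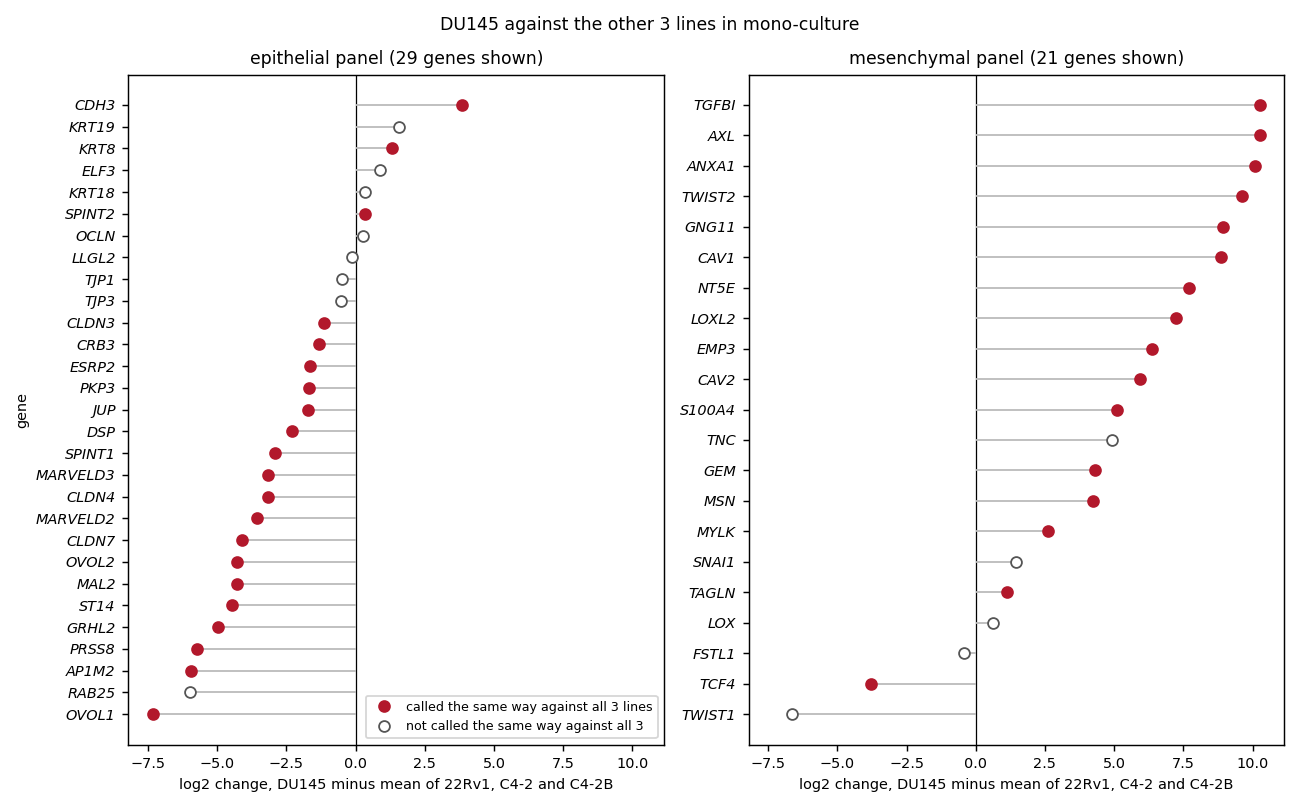
Log2 difference of DU145 from the mean of 22Rv1, C4-2 and C4-2B in mono-culture for 29 of the 30 epithelial and all 21 mesenchymal panel genes tested; filled points were called in the same direction against each of the 3 lines (edgeR). The epithelial points lie mostly below 0, with a median of −1.70 over all 30. The mesenchymal genes shown are those that reached the minimum of 100 counts in at least 1 culture, which a gene low in the other lines could do through DU145 alone.

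Co-culture with MG63 cells asked whether the presence of osteoblast-like cells moves these genes. Every MG63 library, at 10418452 to 15397563 counts, was shallower than every mono-culture without RANKL, so MG63 and what went with depth cannot be told apart in this comparison, and values against the mono-cultures with RANKL are given where they end a call or turn a direction. FN1 rose in all 4 lines, in DU145 only with both replicates kept, and no other of the 10 genes was called in the same direction in more than 2 lines. CDH1 fell in DU145. A rise of CDH1 in 22Rv1 and falls of SNAI2 in both BPCa lines were called against mono-culture without RANKL, but not against the mono-cultures with RANKL, which are near in depth. The genes called were 2 of 8 in DU145, where 30.5% of all genes tested were called, 5 of 8 in 22Rv1 (20.4% of all genes), 2 of 8 in C4-2 (10.1%) and 2 of 8 in C4-2B (7.41%). The 2 of 8 in DU145 are a smaller share than that of all genes. Without replicate 2 of DU145 with MG63 the calls were 1 of 8 in DU145 (14.9% of all genes), 7 of 8 in 22Rv1 (36.6%), 5 of 8 in C4-2 (23.8%) and 3 of 8 in C4-2B (20.3%). The MG63 and RANKL comparisons share the mono-cultures without RANKL as controls.

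FN1 in C4-2 was at 1401 and 1310.4 TPM with MG63 against 507 to 575 TPM in mono-culture. In C4-2B it was at 1535 and 1558 TPM against 855 to 921 TPM, and in 22Rv1 at 47.4 and 41.6 TPM against 18.9 to 23.3 TPM. None of these groups overlapped. The changes were 2.7-fold in C4-2 (log2 1.43 ± 0.0845, adjusted p = 3.39e-08), 2.33-fold in 22Rv1 (log2 1.22 ± 0.0916, adjusted p = 4.55e-07) and 1.83-fold in C4-2B (log2 0.87 ± 0.0844, adjusted p = 1.62e-05). In DU145 FN1 was at 6.29 and 6.01 TPM against 3.94 to 4.98 TPM, 1.45-fold (adjusted p = 0.00574), and the call ended without MG63 replicate 1 (log2 0.50, adjusted p = 0.0873) or 2 (log2 0.57, adjusted p = 0.0918). The size differed among the 4 lines (highest minus lowest log2 change 0.897, adjusted p = 0.00262). The EDA share with MG63 was 46.3% ± 0.231 in C4-2, below all 3 mono-cultures without RANKL, and 44.5% ± 0.941 in C4-2B, where it overlapped with them (SD, n = 2). In C4-2 mono-cultures with RANKL, of like depth, the share was 46.3% ± 0.289 (SD, n = 2) and overlapped with that with MG63.

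Beside FN1, 12 markers of osteoblast-like cells such as MG63 were read. Their summed level was 9.76 to 13.7 TPM in C4-2 with MG63 against 10.7 to 11.2 TPM in mono-culture, and 10.8 to 10.9 TPM against 9.92 to 10.3 TPM in C4-2B. It was 25.1 to 25.6 TPM against 18.5 to 22.1 TPM in 22Rv1 and 8.08 to 14.5 TPM against 7.53 to 9.90 TPM in DU145. In C4-2 with MG63, 5 of the 12 markers (COL1A2, COL6A3, THY1, LUM and POSTN) were at or under 3 counts in each library, and in C4-2B 6 were, COL3A1 being the sixth. The part of these markers in the FN1 changes was not tested. Against the mono-cultures with RANKL, whose depth is near that of the co-cultures, FN1 with MG63 was still higher in C4-2 (log2 0.74, adjusted p = 4.27e-06), C4-2B (0.48, adjusted p = 0.00162) and 22Rv1 (0.32, adjusted p = 0.0442), while in DU145 it was lower (−0.50, adjusted p = 0.0115).

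CDH1 in DU145 was at 6.04 and 6.99 TPM with MG63, below all 3 mono-cultures at 10.0 to 13.6 TPM (log2 −0.81 ± 0.116, adjusted p = 2.63e-04). Without replicate 2 the change was −0.90 (adjusted p = 0.00377). In 22Rv1 CDH1 was at 134 and 127 TPM against 107 to 119 TPM (log2 0.31 ± 0.0840, adjusted p = 0.0155), a small difference without overlap. Set against mono-culture with RANKL it was 0.08 (adjusted p = 0.668) and with library totals in place of TMM 0.20 (adjusted p = 0.115), and the call also ended without 22Rv1 mono replicate 3 or either MG63 replicate (adjusted p = 0.0720 to 0.118). The change differed among lines (highest minus lowest 1.12, adjusted p = 4.95e-04).

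ESRP1 fell in 22Rv1 with MG63, to 71.6 and 66.8 TPM from 101 to 107 TPM (log2 −0.49 ± 0.0827, adjusted p = 6.80e-04). VIM was at 14.1 and 12.5 TPM there against 17.9 to 21.5 TPM (log2 −0.47 ± 0.145, adjusted p = 0.0331). ZEB1 was at 1.09 and 1.25 TPM against 2.83 to 3.10 TPM (log2 −1.19 ± 0.252, adjusted p = 0.00348), although nearly all of it was the retained-intron transcript and protein-coding ZEB1 was at or under 0.885 counts in every 22Rv1 culture. Set against mono-culture with RANKL instead, the VIM and ZEB1 changes in 22Rv1 turned to 0.36 and 0.27 on the log2 scale (adjusted p = 0.176 and 0.725). The VIM call also ended without 22Rv1 mono replicate 2 or 3 or either MG63 replicate (adjusted p = 0.0635 to 0.191), and the ZEB1 call without MG63 replicate 1 (adjusted p = 0.0580). SNAI2 was at 2.06 and 2.50 TPM in C4-2 with MG63 against 3.47 to 4.59 TPM (log2 −0.68 ± 0.181, adjusted p = 0.0249). In C4-2B it was at 3.76 and 4.38 TPM against 6.81 to 7.24 TPM (log2 −0.73 ± 0.162, adjusted p = 0.0105). Set against mono-culture with RANKL neither SNAI2 change was called, at −0.40 in C4-2 (adjusted p = 0.383) and −0.50 in C4-2B (adjusted p = 0.193). The call in C4-2 also ended without mono replicate 3 or either MG63 replicate (adjusted p = 0.0674 to 0.246), and that in C4-2B without MG63 replicate 1 (adjusted p = 0.143).

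EPCAM was not called by edgeR in any line with MG63, with log2 changes from −0.05 in DU145 to 0.25 in 22Rv1. Without replicate 2 of DU145 the change in DU145 was −0.47 (adjusted p = 0.109), and EPCAM in 22Rv1 was then called (log2 0.24, adjusted p = 0.0466). ESRP1 in DU145 was at 0.827 and 0.437 TPM against 0.441 to 0.768 TPM, and its log2 change was 0.27 with both replicates and 0.59 without replicate 2, called in neither. CD44 in C4-2 was at 0.795 and 0.585 TPM with MG63 against 0.213 to 0.271 TPM, above all 3 mono-cultures at 9.01 to 11.3 counts per library. EdgeR did not call it (log2 1.54 ± 0.728, adjusted p = 0.214), whereas DESeq2 did (log2 1.58, adjusted p = 0.0162), as did edgeR without replicate 2 of DU145 (log2 1.54, adjusted p = 0.0250). In DU145 CD44 was at 168 and 82.7 TPM, and without replicate 2, the lower value, its log2 change was 0.05 instead of −0.38. CDH2 in 22Rv1 was at 0.610 and 0.560 TPM, below the 3 mono-cultures, but a fit with no minimum of counts did not call it (adjusted p = 0.673), nor ZEB2 in DU145, at 1.1 and 1.54 TPM against 0.875 to 1.5 TPM (adjusted p = 0.894). Across the 4 lines, the MG63 change differed for CDH1, ESRP1, FN1, SNAI2 and VIM, 5 of 8 genes, where 14.5% of all genes tested differed. The VIM call was lost in 19 alternatives and the ESRP1 call in 6, among them leaving out 22Rv1 mono replicate 1 or 2, 22Rv1 MG63 replicate 1 or 2, or C4-2B MG63 replicate 1 (adjusted p = 0.0523 to 0.0883). Without replicate 2 of DU145 ZEB1 was called as well, 6 of 8 genes against 24.3% of all genes.

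In the panels the calls with MG63 are read beside the shares of all genes given above. Of 30 epithelial genes tested, 10 rose and 1 fell in 22Rv1, 2 rose and 9 fell in DU145, 3 rose and 2 fell in C4-2, and 2 rose in C4-2B. These are 36.7% of the panel in 22Rv1 and in DU145, 16.7% in C4-2 and 6.67% in C4-2B, against 20.4%, 30.5%, 10.1% and 7.41% of all genes. Without replicate 2 of DU145, 1 rose and 12 fell in DU145, 13 rose and 2 fell in 22Rv1, 10 rose and 3 fell in C4-2, and 8 rose and 4 fell in C4-2B. The median log2 change was 0.30 in 22Rv1 and −0.05 in DU145, against 0.00 and −0.06 over all genes tested. CLDN4, a tight junction claudin, rose in 22Rv1 from 48.0 to 53.1 TPM to 110.3 and 110.1 TPM (log2 1.21, adjusted p = 1.44e-07), and ELF3, an epithelial transcription factor, rose in C4-2 from 15.2 to 17.3 TPM to 36.5 and 33.4 TPM (log2 1.21, adjusted p = 5.37e-06). RAB25, a small GTPase of epithelial vesicle traffic, rose in 22Rv1 from 0.134 to 0.473 TPM to 0.645 and 1.32 TPM (log2 1.59, adjusted p = 0.0488). In the 22Rv1 mono-cultures 3 counts correspond to 0.0930 to 0.125 TPM, so RAB25 started near the floor. In 22Rv1 with RANKL alone CLDN4 was at 100.6 and 108.2 TPM, near its values with MG63. RAB25 was there at 1.01 and 0.749 TPM, within its values with MG63. ELF3 in C4-2 with RANKL alone was at 21.1 and 23.3 TPM, below its values with MG63. Of 21 mesenchymal genes tested, 4 rose and 1 fell in 22Rv1, 1 rose and 5 fell in DU145, and 1 rose and 1 fell in each BPCa line, which is 23.8%, 28.6% and 9.52% of the genes tested in 22Rv1, DU145 and each BPCa line. CAV1 rose in 22Rv1 from 1.40 to 1.69 TPM to 5.33 and 3.60 TPM (log2 1.71, adjusted p = 3.56e-05), and GEM in C4-2 from 0.138 to 0.298 TPM to 1.45 and 1.46 TPM (log2 2.87, adjusted p = 1.10e-05). In the C4-2 mono-cultures 3 counts correspond to 0.0893 to 0.108 TPM, so GEM started near the floor and its fold is uncertain. S100A4, a calcium-binding protein, rose in 22Rv1 from 0.575 to 1.304 TPM to 3.92 and 3.37 TPM (log2 2.03, adjusted p = 0.0307).

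**Figure D3:**
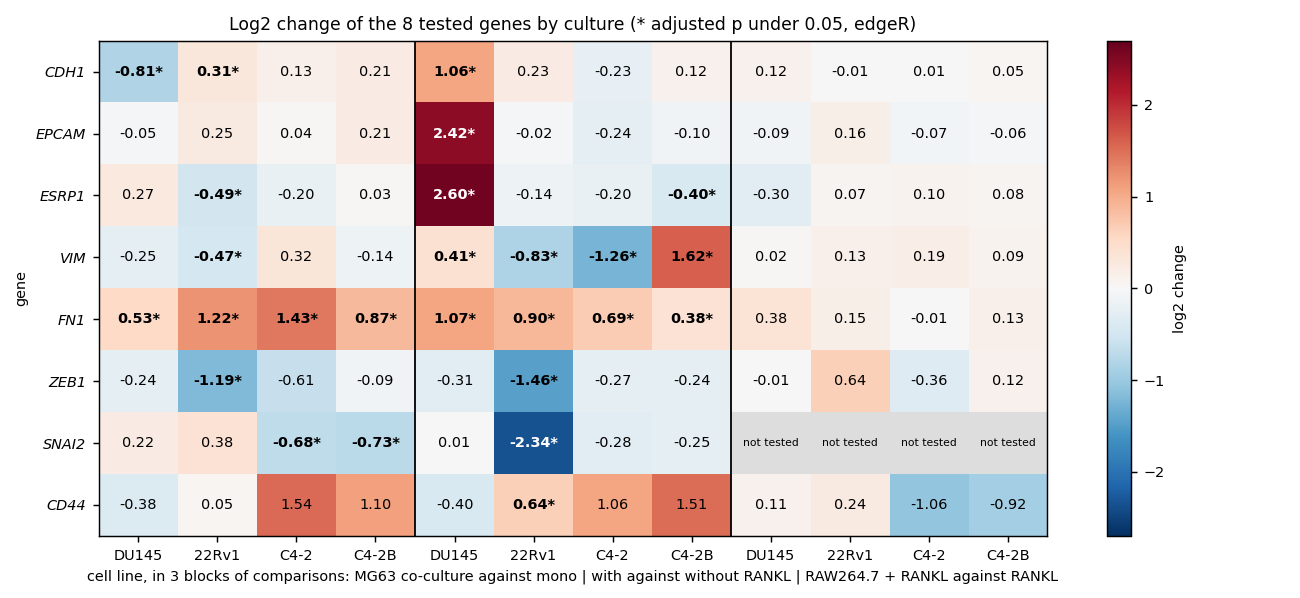
Log2 change of the 8 tested genes in each line for MG63 co-culture against mono-culture, with against without RANKL, and RAW264.7 with RANKL against RANKL alone; an asterisk marks an edgeR adjusted p under 0.05. FN1 has an asterisk in all 4 lines in the first 2 blocks, EPCAM and ESRP1 are at 2.42 and 2.60 in DU145 with RANKL, and the third block has no asterisk.

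RANKL in mono-culture went with large changes that differed by line. In DU145 the 3 epithelial genes rose, in 22Rv1 SNAI2 fell and CDH2 rose, and VIM moved in opposite directions in C4-2 and C4-2B. The mono-cultures with RANKL had 10097501 to 13373083 counts, below every mono-culture without it, so within mono-cultures RANKL and what went with depth cannot be told apart. The MG63 co-cultures, without RANKL and of like depth, are given beside the results for that reason. The genes called were 5 of 8 in DU145 (32.5% of all genes tested), 5 of 8 in 22Rv1 (17.7%), 2 of 8 in C4-2 (18.3%) and 3 of 8 in C4-2B (14.4%).

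EPCAM in DU145 was at 84.5 and 89.9 TPM with RANKL against 14.5 to 21.6 TPM without it, and at 86.1 and 79.4 TPM with RANKL and RAW264.7. ESRP1 was at 3.42 and 3.41 TPM with RANKL against 0.441 to 0.768 TPM, and at 3.09 and 2.55 TPM with RAW264.7. CDH1 was at 24.7 and 21.7 TPM against 10.0 to 13.6 TPM, and at 21.0 and 29.7 TPM with RAW264.7. No value of the 4 cultures with RANKL overlapped with those without. The changes were 5.36-fold for EPCAM (log2 2.42 ± 0.130, adjusted p = 7.21e-13), 6.08-fold for ESRP1 (log2 2.60 ± 0.164, adjusted p = 1.49e-11) and 2.08-fold for CDH1 (log2 1.06 ± 0.107, adjusted p = 4.13e-08). EPCAM thereby came to the level of the other lines, which had 75.9 to 107 TPM over all their cultures, while ESRP1 stayed below theirs of 45.6 to 107 TPM. The shallow libraries of DU145 with MG63 had EPCAM at 12 and 20.5 TPM and ESRP1 at 0.827 and 0.437 TPM, near the deep mono-cultures.

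In the same DU145 cultures VIM and FN1 also rose. VIM was at 1539 and 1569 TPM with RANKL against 1238 to 1288 TPM (log2 0.41 ± 0.110, adjusted p = 0.00583), and FN1 at 9.15 and 8.41 TPM against 3.94 to 4.98 TPM (log2 1.07 ± 0.126, adjusted p = 3.76e-07). The VIM call ended without DU145 RANKL replicate 1 (adjusted p = 0.0550). ZEB1 was at 13.5 and 12.7 TPM against 16.8 to 18.5 TPM and was not called (log2 −0.31 ± 0.178, adjusted p = 0.191). ZEB2 was at 0.260 and 0.188 TPM against 0.875 to 1.5 TPM, and a fit with no minimum of counts, in which 15.8% of all genes were called, called it (log2 −2.46 ± 0.810, adjusted p = 0.0408). CD44 was at 118 and 124 TPM against 166 to 177 TPM without overlap, short of the threshold (log2 −0.40 ± 0.161, adjusted p = 0.0580).

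The epithelial panel moved with these genes in DU145: 18 of 30 genes tested rose and 4 fell with RANKL, with a median log2 change of 0.68 against −0.01 over all genes tested. The protease ST14 rose from 2.19 to 3.25 TPM to 10.7 and 9.96 TPM (log2 2.13 ± 0.109, adjusted p = 2.75e-13), its inhibitor SPINT1 from 10.0 to 13.8 TPM to 32.3 and 36.3 TPM (log2 1.65 ± 0.155, adjusted p = 1.20e-08), and the transcription factor OVOL2 from 0.299 to 0.438 TPM to 1.64 and 2.18 TPM (log2 2.38 ± 0.254, adjusted p = 9.23e-08). The 4 that fell were LLGL2, a polarity protein (log2 −1.32, adjusted p = 1.52e-08), AP1M2 (−0.82, adjusted p = 0.00283), TJP3 (−0.79, adjusted p = 0.0343) and ELF3 (−0.57, adjusted p = 0.00151). LLGL2 and TJP3 were named after their values were seen. In the mesenchymal panel 6 of 21 genes rose (CAV1, CAV2, LOX, NT5E, TAGLN and TNC) and 3 fell (LOXL2, S100A4 and TGFBI). CAV1, a protein of membrane caveolae, rose from 164.5 to 167.6 TPM to 283 and 286 TPM (log2 0.88 ± 0.0960, adjusted p = 1.26e-07), and TNC, a matrix glycoprotein, by 1.12 on the log2 scale (adjusted p = 1.04e-06), both named after their values were seen. The 2 largest changes were falls, of LOXL2, a lysyl oxidase, from 441 to 480.3 TPM to 177 and 166 TPM (log2 −1.31 ± 0.0854, adjusted p = 2.77e-11), and S100A4, from 60.4 to 67.6 TPM to 23.7 and 19.8 TPM (log2 −1.45 ± 0.317, adjusted p = 9.17e-04). In 22Rv1, 9 epithelial genes rose and 0 fell, in C4-2 8 rose and 4 fell, and in C4-2B 3 rose and 2 fell. The epithelial calls are 73.3% of the panel in DU145, 30% in 22Rv1, 40.0% in C4-2 and 16.7% in C4-2B, against 32.5%, 17.7%, 18.3% and 14.4% of all genes. In the mesenchymal panel 1 rose and 1 fell in 22Rv1, 2 rose and 2 fell in C4-2, and 2 fell in C4-2B, which is 9.52%, 19.0% and 9.52% of the genes tested, and in DU145 it is 42.9%. GEM, a small GTPase-like protein, rose in C4-2 from 0.138 to 0.298 TPM, near the floor, to 0.888 and 0.836 TPM (log2 2.06, adjusted p = 0.00137). The summed level of the 10 prostate epithelial markers, 3 of which are keratins, was 2161 to 2163 TPM in DU145 with RANKL and 1213 to 1243 TPM without it. The part of depth in these results was not tested.

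In 22Rv1 SNAI2 was at 2.90 and 1.58 TPM with RANKL and at 3.31 and 2.26 TPM with RANKL and RAW264.7. Without RANKL it was at 10.9 to 11.7 TPM in mono-culture and at 14.5 and 12.9 TPM with MG63, so the 4 cultures with RANKL lay below all 5 without it. The fall was 5.08-fold (log2 −2.34 ± 0.219, adjusted p = 3.25e-08). CDH2 was at 6.66 and 7.13 TPM with RANKL and at 5.83 and 5.33 TPM with RAW264.7, against 0.827 to 1.22 TPM in mono-culture. The fit with no minimum of counts, in which 8.69% of all genes were called, gave a log2 change of 2.63 ± 0.523 (adjusted p = 0.00595), and on reads recovered from the deposited values it was 2.65 ± 0.239 (adjusted p = 2.53e-06). CDH1 in the same cultures, at 128 and 131 TPM against 107 to 119 TPM, was not called by edgeR (log2 0.23 ± 0.0919, adjusted p = 0.0935) but was by DESeq2 (log2 0.25, adjusted p = 0.0108), and did not overlap.

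Also in 22Rv1, CD44 was at 49.9 and 53.2 TPM with RANKL against 31.4 to 36.8 TPM (log2 0.64 ± 0.170, adjusted p = 0.0101), and at 60.2 and 58.9 TPM with RAW264.7. The CD44 call ended without 22Rv1 RANKL replicate 2 (adjusted p = 0.1003). VIM was at 11.6 and 10.2 TPM against 17.9 to 21.5 TPM (log2 −0.83 ± 0.151, adjusted p = 2.92e-04). FN1 was at 34.8 and 40.6 TPM against 18.9 to 23.3 TPM (log2 0.90 ± 0.0967, adjusted p = 3.35e-07). These 3 genes did not overlap between the groups. ZEB1 fell from 2.83 to 3.10 TPM to 1.05 and 1.01 TPM (log2 −1.46 ± 0.290, adjusted p = 7.92e-04), again in the retained-intron transcript for the most part.

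VIM in C4-2 was at 8.61 and 6.45 TPM with RANKL and at 8.94 and 8.39 TPM with RAW264.7, below the 18.4 to 20.4 TPM of mono-culture. In C4-2B it was at 12.5 and 10.9 TPM with RANKL and at 10.9 and 14.3 TPM with RAW264.7, above the 3.45 to 4.33 TPM of mono-culture. Both sets were free of overlap, and the order of the sister lines was thereby exchanged. The log2 changes were −1.26 ± 0.156 in C4-2 (2.40-fold lower, adjusted p = 2.53e-06) and 1.62 ± 0.159 in C4-2B (3.08-fold higher, adjusted p = 1.14e-07). The MG63 cultures, shallow as well, had 23.5 and 21.3 TPM in C4-2 and 3.70 and 3.24 TPM in C4-2B, on the side of mono-culture in each line.

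FN1 rose with RANKL in C4-2, from 507 to 575 TPM to 853 and 789.9 TPM (log2 0.69 ± 0.0843, adjusted p = 2.37e-06), and in C4-2B, from 855 to 921 TPM to 1072 and 1100.2 TPM (log2 0.38 ± 0.0845, adjusted p = 0.00303), the latter call ending without C4-2B RANKL replicate 2 (adjusted p = 0.0606). ESRP1 fell in C4-2B from 62.6 to 68.3 TPM to 47.5 and 45.6 TPM (log2 −0.40 ± 0.0724, adjusted p = 3.84e-04). CDH2 in C4-2 with RANKL was at 0.218 and 0.0351 TPM, under 3 counts in both cultures, and no fold is given although the fit with no minimum called it (adjusted p = 0.0488). Across lines the change with RANKL differed for all 8 genes, where 32.6% of all genes tested differed. The widest spans between the highest and the lowest log2 change were 3.01 for ESRP1 (adjusted p = 5.28e-11), 2.88 for VIM (adjusted p = 7.61e-10) and 2.66 for EPCAM (adjusted p = 4.65e-11).

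**Figure D4:**
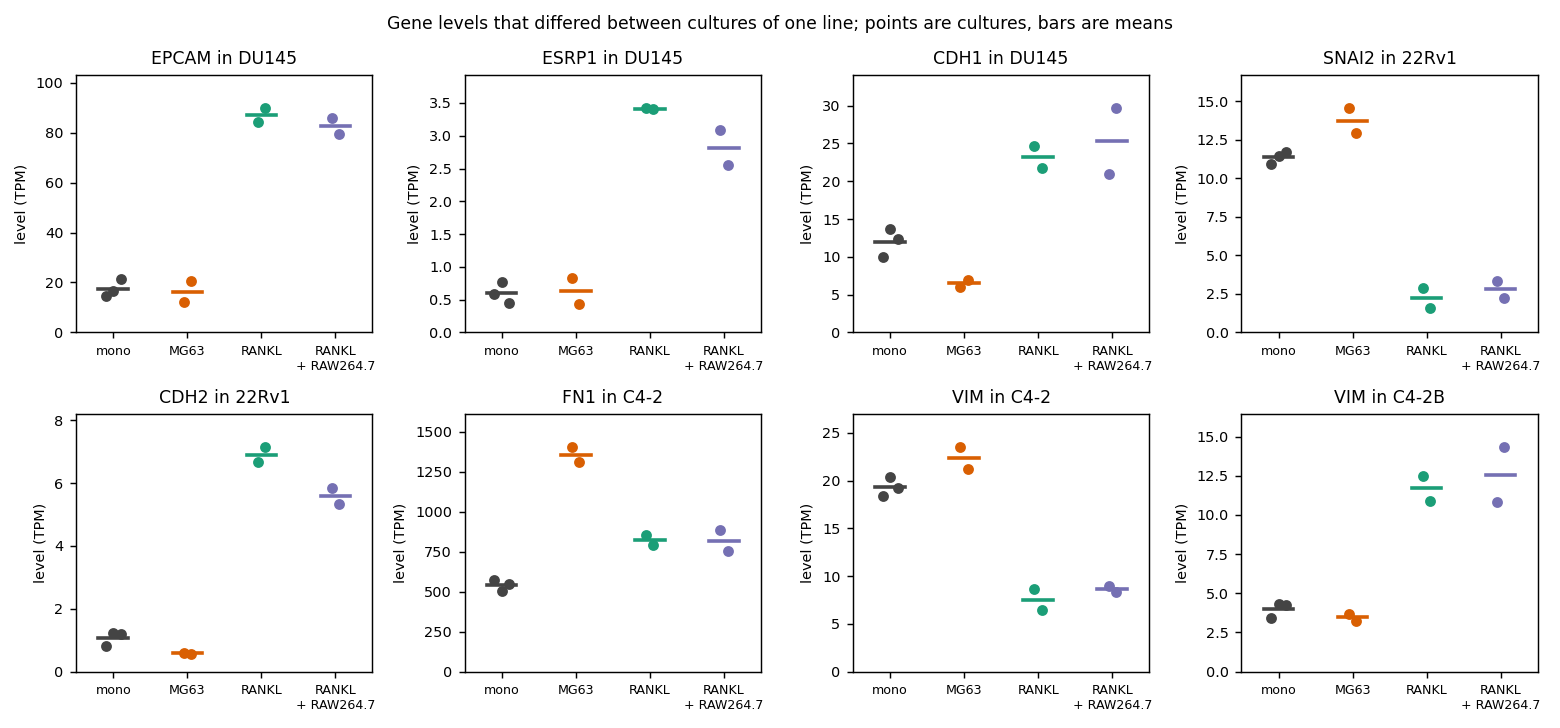
Level (TPM, linear axes from 0) of 8 gene and line pairs in the 4 cultures; points are cultures and bars are means. EPCAM, ESRP1 and CDH1 in DU145, CDH2 in 22Rv1 and VIM in C4-2B are higher in all 4 cultures with RANKL than in the mono-cultures without it, SNAI2 in 22Rv1 and VIM in C4-2 are lower, and FN1 in C4-2 is highest with MG63.

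RAW264.7 cells together with RANKL were compared with RANKL alone. SNAI2 did not reach the minimum of counts in these 16 cultures, so 7 genes were tested, and 0 of 7 were called in DU145 (0.0260% of all genes tested were called), 22Rv1 (0.00868%), C4-2 (0.0174%) and C4-2B (0.139%). At an unadjusted p under 0.05 edgeR gave 1 gene in DU145 (FN1, adjusted p = 0.768), 1 in 22Rv1 (CD44, adjusted p = 0.729) and 0 in C4-2 and C4-2B, and DESeq2 gave the same 2. The log2 changes of the 7 genes over the 4 lines ran from −1.07 (CD44 in C4-2) to 0.64 (ZEB1 in 22Rv1). FN1 in DU145 was at 11.3 and 11.8 TPM with RAW264.7 and at 9.15 and 8.41 TPM without it, higher in both cultures (log2 0.38 ± 0.166). Its change missed the threshold, which does not show that the levels were alike. SNAI2 was at 3.31 and 2.26 TPM in 22Rv1 with RAW264.7 against 2.90 and 1.58 TPM, which overlap. ZEB2 was at 0.547 and 0.514 TPM in DU145 with RAW264.7 and at 0.260 and 0.188 TPM without it, no more than 7.44 counts in any of these cultures. The change differed among the 4 lines for 0 of 7 genes, against 0.0347% of all genes tested. In the panels 0 of 29 epithelial and 0 of 20 mesenchymal genes tested were called in each line. Of 10 macrophage and osteoclast markers TYROBP was at 0 in all 36 cultures, and the summed level was 63.1 to 67.4 TPM with RAW264.7 against 64.1 to 66.8 TPM without it in DU145. The transcripts are human and RAW264.7 is a mouse line, so these levels cannot tell whether its RNA was present.

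Over the 16 group means of log2(TPM + 1), 4 of the 10 genes were matched with the genes whose pattern was most like theirs. Pearson's r is a description over groups that share lines, and 4 lines set most of it. For ESRP1 these were KIF1A, FOXA1 and CDS1 (r = 0.996 each). FOXA1, a pioneer factor of luminal epithelium, was at 36 ± 1.48 TPM in DU145 mono-culture and 63.3 ± 1.31 TPM with RANKL (SD, n = 3 and n = 2), and at 253 to 277 TPM in mono-cultures of the other lines by their means. For VIM they were UCHL1 (r = 0.989), MB21D2 (0.988) and FZD7 (0.987), and for FN1 HSPB1 (0.992), GTF3A (0.991) and CFAP92 (0.991). For CDH2 they were FABP7 (0.982), TMTC1 (0.966) and GATA3 (0.962). GATA3, a luminal transcription factor, was at 7.90 ± 0.523 TPM in 22Rv1 mono-culture and at 45.3 ± 3.74 TPM with RANKL, and FABP7, a fatty acid binding protein, at 0.911 ± 0.384 and 14.9 ± 0.920 TPM.

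The other genes lie at chr16:68737225-68835548 (CDH1, plus strand), chr18:27950966-28177446 (CDH2, minus), chr2:47345158-47387601 (EPCAM, plus), chr10:17228259-17237593 (VIM, plus), chr2:215360440-215436172 (FN1, minus), chr10:31318495-31529814 (ZEB1, plus) and chr2:144364364-144524583 (ZEB2, minus) in GENCODE 29 on GRCh38, and ESRP1 and SNAI2 lie on chromosome 8. All annotated transcripts of the 10 genes were in the table, from 2 for SNAI2 to 38 for CD44, and a value is the sum over all of a gene's transcripts, exons and untranslated regions included.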

How the data were processed

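RNA from 36 cultures was sequenced, and the labels put each culture in its group. All columns of values were used. Per the labels, reads were checked with FastQC and quantified with kallisto by the authors, and the build named is hg19. The deposited table holds an estimated count per transcript in each culture. These values behave as counts already scaled by transcript length: multiplied by length, 69.4% to 78.2% of low values per library fell within 0.05 of a whole multiple of 1 number, against 6.91% to 11.0% as deposited. Set to a library total of 1000000 they are therefore TPM. Reads were recovered from the same multiples as an alternative.

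Repeated transcript lines were used once, and transcripts were summed by symbol to 27852 genes. Transcripts without a symbol held 0.526% to 0.764% of the counts per library. They stayed in library totals and out of the tests. Rounded counts were tested with edgeR 4.0.16 (TMM, quasi-likelihood) in R 4.3.3, keeping genes with at least 100 counts in 1 or more of the cultures fitted. The 20 cultures without RANKL were fitted together, as were all 36 for RANKL and the 16 with RANKL for RAW264.7. This left 13437, 13454 and 11525 genes. Every adjusted p in the text is an edgeR value adjusted over all genes tested (Benjamini-Hochberg), unless DESeq2 1.42.0 is named. A gene was called at an adjusted p under 0.05. CD44 shares were compared with exact permutation tests. Panel genes were named by size of change among those called, and pattern matches by the 3 highest correlations. All of the 10 genes were tested or given by level where counts allowed, and 1 panel gene that the rule would name is not reported here. The procedures were tested on simulated data.

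The 10 genes, the panels, the marker lists and the tests were chosen with earlier results of these data known. Alternatives changed the minimum, scaling, tool, cultures fitted, thresholds, control and replicate block, and left out each culture in turn. The recovered reads and the tests across lines for RANKL and RAW264.7 were added after seeing the data. No 2 libraries were identical, and the closest pair within a group differed by a chi-square of 2.96 per degree of freedom, above sampling noise. GENCODE 29 (GRCh38) gave lengths and coordinates for 95.4% of the transcripts in the table.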

Additional observations from a re-analysis of the deposited data

Results flagged for a closer look

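The change with MG63 differed among the 4 lines for 5 genes by edgeR's test of the difference itself. The highest minus the lowest log2 change was 1.12 for CDH1, from −0.81 in DU145 to 0.31 in 22Rv1 (adjusted p = 4.95e-04). It was 1.12 for SNAI2, from −0.73 in C4-2B to 0.38 in 22Rv1 (adjusted p = 0.00391), and 0.897 for FN1, from 0.53 in DU145 to 1.43 in C4-2 (adjusted p = 0.00262). ESRP1 spanned 0.752, from −0.49 in 22Rv1 to 0.27 in DU145 (adjusted p = 0.0249, lost in 6 alternatives, 5 of which left out 1 culture), and VIM 0.783, from −0.47 in 22Rv1 to 0.32 in C4-2 (adjusted p = 0.0498), a call lost in 19 alternatives, among them leaving out any of 16 single cultures.

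The change with RANKL differed among the lines for all 8 genes tested. ESRP1 spanned 3.01, from −0.40 in C4-2B to 2.60 in DU145 (adjusted p = 5.28e-11), and EPCAM 2.66, from −0.24 in C4-2 to 2.42 in DU145 (adjusted p = 4.65e-11). VIM spanned 2.88, from −1.26 in C4-2 to 1.62 in C4-2B (adjusted p = 7.61e-10), the widest gap between the sister lines among these genes. SNAI2 spanned 2.36, from −2.34 in 22Rv1 to 0.01 in DU145 (adjusted p = 3.82e-06). CD44 spanned 1.91, from −0.40 in DU145 to 1.51 in C4-2B (adjusted p = 0.00339), the upper end resting on at most 14.3 counts per library. CDH1 spanned 1.28, from −0.23 in C4-2 to 1.06 in DU145 (adjusted p = 1.63e-06), ZEB1 1.22, from −1.46 in 22Rv1 to −0.24 in C4-2B (adjusted p = 0.0414, lost in 19 alternatives), and FN1 0.692, from 0.38 in C4-2B to 1.07 in DU145 (adjusted p = 0.00247). The MG63 libraries and the mono-cultures with RANKL were shallower than the mono-cultures without it, and the part of depth was not tested.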

How the results depend on the processing

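Under every planned and added alternative the differences between lines kept 41 or 42 calls of 48, or 47 of 60 with no minimum of counts, except that the study's thresholds (over 2-fold and an unadjusted p under 0.05) gave 32. With MG63, 11 of 32 gene and line pairs were called. The study's thresholds gave 3, the replicate block within each cell line 4, and leaving out 1 culture 8 to 19, the 19 coming without DU145 MG63 replicate 1. The test across lines with MG63 called 5 of 8 genes, 0 under the replicate block within each line, and 3 to 7 without 1 culture. The 3 came without 22Rv1 mono replicate 2, 22Rv1 MG63 replicate 1 or 2, or C4-2B MG63 replicate 1. With RANKL 15 of 32 pairs were called, 9 at the study's thresholds and 14 to 16 without 1 culture, and across lines 8 of 8, with 7 to 8 without 1 culture. With RAW264.7 the counts were 0 and 0 under all alternatives, and 0 to 0 without 1 culture. When mono-culture with RANKL served as the control for MG63, FN1 in DU145 reversed to −0.50, VIM in 22Rv1 to 0.36 and ZEB1 in 22Rv1 to 0.27 on the log2 scale. The cause was not tested. VIM across lines with MG63 and ZEB1 across lines with RANKL lost their calls in 19 alternatives each, CDH1 and VIM in 22Rv1 with MG63 in 8 each, ESRP1 across lines with MG63 in 6, SNAI2 in C4-2 with MG63 in 7 and SNAI2 in C4-2B with MG63 in 4. Between cultures of equal replicate number, 32 correlations of deviations ran from −0.0755 to 0.0656. Where both groups hold 2 cultures the values for replicates 1 and 2 are equal, so the 32 are not separate checks. They cannot exclude that cultures were paired. A replicate block across lines called 9 of 32 pairs with MG63. A block within lines could not be fitted for differences between lines, in which it is nested. Scaling by transcript length was not run, since the deposited values already carry it. Library totals in place of TMM moved the median log2 change of all genes by −0.109 to 0.093. Depth limits CDH2, ZEB2, CD44 in the BPCa lines and ZEB1 outside DU145.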
